A study of Mus musculus with 12 samples.

Results

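The metallothionein and glutathione S-transferase genes measured here are Mt1, Mt2, Mt3, Gstm1, Gstm5, Gstp1, Gsta4, Gstt1 and Mgst1, 9 of the 24108 genes listed in the count table of a bulk RNA-seq study of mouse neural stem/progenitor cells (NPCs). They were taken by gene symbol, and all 9 were listed and passed the low-count filter that left 13745 genes for testing. The study asked how p53 acts in NPCs that become quiescent on contact with brain microvascular endothelial cells (bmvECs). NPCs were isolated from the subventricular zone (SVZ) of C57BL/6 mice at postnatal days 9 to 12. The 12 libraries cover both genotypes, p53-/- and p53+/+, each in co-culture with bmvECs and alone, with 3 libraries in each of the 4 groups.

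All 4 groups were grown in DMEM/F12 with 0.25% FBS, N2, EGF at 20 ng/ml, bFGF at 10 ng/ml and bovine pituitary extract at 35 μg/ml. Co-cultured NPCs spent 48 h on a monolayer of purchased primary C57BL/6J bmvECs and were detached from it by selective trypsinization. NPCs alone spent 48 h on laminin. The p53-/- NPCs were p53loxP/loxP cells infected with an adenovirus carrying iCre under the CMV promoter (Ad-CMV-iCre), which acts in any infected cell, and the controls of such experiments received an adenovirus with the CMV promoter only (Ad-CMV-Null). The labels call the p53+/+ cells wild type. The 3 libraries of a group come from 3 experiments, named 17_9, 25_9 and 1_10, which the series text describes as independent biological repeats.

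Metallothioneins are small, cysteine-rich proteins that bind zinc and copper and can scavenge reactive oxygen. In the brain they are best known from astrocytes, and Mt3 is the brain-enriched member. Mt1 and Mt2 respond to zinc through the zinc-sensing transcription factor MTF1, which binds metal response elements (MREs), and also to glucocorticoids and oxidants. Glutathione S-transferases join glutathione to electrophiles so that these can be exported. The cytosolic enzymes fall into classes, here mu (Gstm1, Gstm5), pi (Gstp1), alpha (Gsta4) and theta (Gstt1), while Mgst1 is a membrane enzyme. Several of these genes are known targets of NRF2, encoded by Nfe2l2, which binds antioxidant response elements (AREs).

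The 3 metallothionein promoters are shown because Mt1, Mt2 and Mt3 lie on chromosome 8, were the most abundant of the 9 genes per length in co-culture, and all rose there. Each line gives the 250 bases before the RefSeq start on build GRCm38.p6, 5′ to 3′ on the plus strand, with matches to the MRE core in capitals (TGCACNC or TGCGCNC on either strand).
Mt1, chr8:94178839-94179088: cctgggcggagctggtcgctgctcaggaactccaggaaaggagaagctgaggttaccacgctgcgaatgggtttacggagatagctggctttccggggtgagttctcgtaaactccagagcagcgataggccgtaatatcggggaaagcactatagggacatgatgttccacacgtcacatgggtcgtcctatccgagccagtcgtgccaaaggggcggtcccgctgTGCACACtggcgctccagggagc
Mt2, chr8:94172368-94172617: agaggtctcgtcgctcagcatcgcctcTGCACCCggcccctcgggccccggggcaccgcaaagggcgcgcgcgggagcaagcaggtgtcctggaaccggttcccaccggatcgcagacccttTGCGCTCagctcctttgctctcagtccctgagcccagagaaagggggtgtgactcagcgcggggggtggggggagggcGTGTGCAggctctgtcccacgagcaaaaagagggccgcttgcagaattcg
Mt3, chr8:94152357-94152606: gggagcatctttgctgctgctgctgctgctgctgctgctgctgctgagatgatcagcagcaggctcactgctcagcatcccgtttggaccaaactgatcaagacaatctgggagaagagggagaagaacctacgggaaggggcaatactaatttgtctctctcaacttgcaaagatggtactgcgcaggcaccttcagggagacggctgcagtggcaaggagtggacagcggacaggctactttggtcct
RefSeq windows were found for 8 of the 9 genes, all except Gsta4. Counted over the full window of 300 bases, which adds the first 50 after the start, the MRE core was found 3 times at Mt1, 4 times at Mt2 and once at Mt3. The stretches shown hold 1 of these at Mt1, 3 at Mt2 and 0 at Mt3. The rest lie after the RefSeq start, those of Mt1 at bases 3 and 21. Of 32817 windows of 300 bases of mouse genes, 25.7% held the core at least once, 1.97% at least 3 times and 0.518% at least 4 times. Gstm1, Gstm5 and Gstt1 had 1 match each, and Gstp1 and Mgst1 had none. The ARE core (TGACNNNGC, either strand) was found once each at Mt2, Gstm5 and Mgst1, against 12.4% of all windows, and overlapped no MRE core. A match is a description of letters, and a gene can have other starts than those listed by RefSeq.

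Total counts ranged from 16509710 to 22245224 per library. Trp53 fell in p53-/- NPCs (log2 fold change -2.01 ± 0.18 SE in co-culture and -2.71 ± 0.19 alone), as did the p53 target Cdkn1a (-4.44 ± 0.50 and -4.74 ± 0.51), in the direction of the genotype labels. Endothelial markers summed to 153 to 186 CPM (counts per 1000000 counts of the TMM-scaled library) in p53-/- and 164 to 249.97 CPM in p53+/+ NPCs in co-culture, against 38.7 to 49.5 CPM in p53-/- and 36.7 to 42.4 CPM in p53+/+ NPCs alone. Of the 19 tested, 17 and 19 rose in co-culture of p53-/- and p53+/+ NPCs. Some, such as Tie1, Sox17 and Cdh5, had almost no counts alone. They could pass the low-count filter only through the co-culture libraries, so their rise was set in advance. Cdh5, the endothelial cadherin, had no counts in at least 1 library of each group alone and averaged 21.6 ± 3.1 CPM in p53-/- and 28.5 ± 8.6 CPM in p53+/+ NPCs in co-culture (SD, n = 3 each). Pecam1, an endothelial adhesion protein, averaged 10.6 ± 2.3 CPM in p53-/- and 13.5 ± 4.2 CPM in p53+/+ NPCs in co-culture. Astroglial markers, among them Gfap, Aqp4, Aldoc, Gja1 and Slc1a2, all rose in co-culture (10 of 10 in each genotype). The rise of Gjb6, which had no counts alone, was likewise set in advance by the filter. The sum of the astroglial markers was 14427 to 19785 CPM in p53-/- against 20889 to 30896 CPM in p53+/+ NPCs in co-culture, and 3958 to 4541 CPM in p53-/- against 5007 to 5466 CPM in p53+/+ NPCs alone, with no overlap between genotypes. Of 11 NPC markers, 3 fell in co-culture of p53-/- NPCs and 4 in that of p53+/+ NPCs, Nes among them. Of all tested genes, 17% and 18.3% fell there. Of 7 mural and fibroblast markers tested, 2 rose and 2 fell in p53-/- NPCs and 3 rose and 1 fell in p53+/+ NPCs, and the 1 microglial marker tested, P2ry12, rose in both. The part of these markers' cells in the results below was not tested, and in bulk libraries fewer cells of a type and less RNA per cell cannot be told apart.

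The 9 genes held 0.135% to 0.245% of all counts in p53-/- and 0.208% to 0.392% in p53+/+ NPCs in co-culture, against 0.0647% to 0.101% in p53-/- and 0.0867% to 0.113% in p53+/+ NPCs alone. Levels of different genes are compared here per kilobase of the principal transcript (CPM/kb), with lengths from a mouse annotation of another build than the counts. In p53-/- NPCs in co-culture, Mt3 led with 772 CPM/kb, followed by Mt1 at 676, Mt2 at 584 and Gstm1 at 365 CPM/kb. In p53+/+ NPCs in co-culture the order was Mt1 with 1304, Mt3 with 1239, Mt2 with 1088 and Gstm1 with 600.0 CPM/kb. The ranges of neighbours in these orders overlapped (Mt1 675 to 1906, Mt3 819 to 1623, Mt2 566 to 1557 and Gstm1 496 to 669 CPM/kb in p53+/+ NPCs in co-culture). Alone, Mt3 was first in both genotypes, with 445 CPM/kb in p53-/- and 538 CPM/kb in p53+/+ NPCs. Gstt1 was last in every group, from 11.04 CPM/kb in p53+/+ NPCs in co-culture to 27.1 CPM/kb in p53-/- NPCs alone. Mt4, the metallothionein known from squamous epithelia, had no counts in any library.

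Co-culture was set against culture alone to ask what differs between NPCs kept on bmvECs and NPCs kept on laminin. The co-culture libraries also held endothelial RNA, as given above, and its part in the differences was not tested. In p53-/- NPCs, 7 of the 9 genes rose and 1 fell, while edgeR called 18.8% of all tested genes higher and 17% lower. In p53+/+ NPCs, 8 rose and 1 fell, against 21.2% and 18.3% of all tested genes. The 9 genes were chosen with earlier results of these data known. The shares and medians of all tested genes, here and below, are therefore no independent test of them. Gstt1 was the gene that fell in both, and Gstp1 rose in p53+/+ NPCs without a call in p53-/- NPCs. The median log2 fold change of the 9 genes was 0.76 in p53-/- and 1.20 in p53+/+ NPCs, beside -0.01 and 0.0005 over all tested genes. Between co-culture and alone, the 3 libraries of each side did not overlap for 7 of the 9 genes in p53-/- NPCs and for all 9 in p53+/+ NPCs. Of all tested genes, 23.3% lay wholly above and 21.5% wholly below in p53-/- NPCs, and 27.9% and 25.7% in p53+/+ NPCs.

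**Figure D1:**
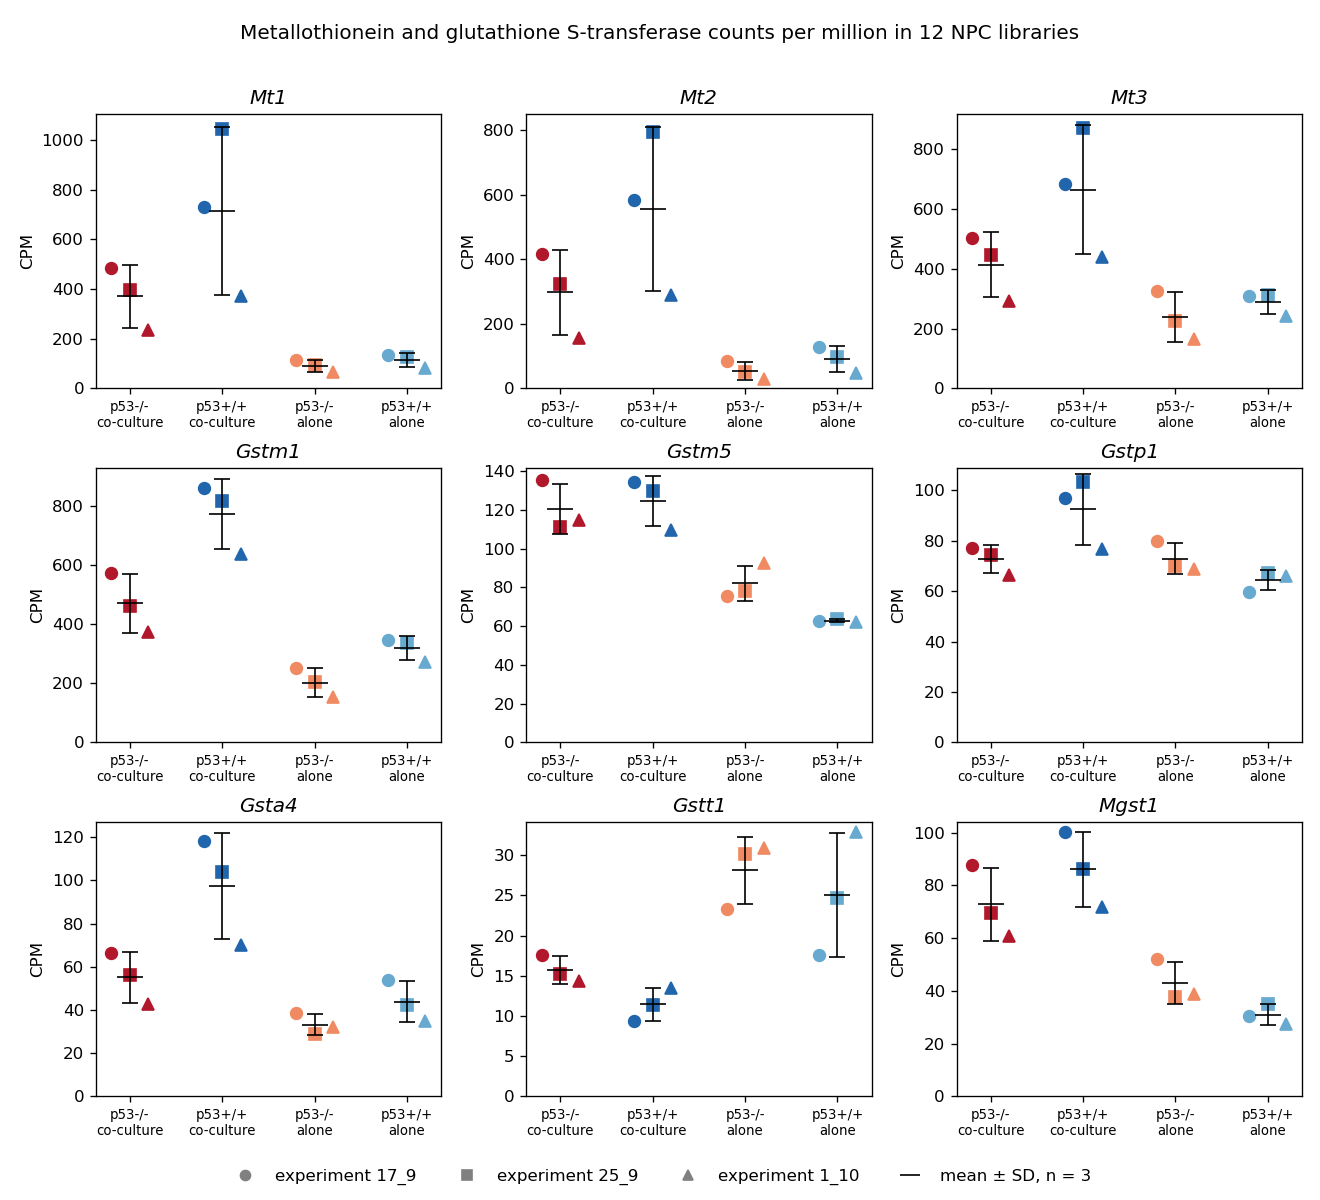
CPM of each gene in the 12 libraries, by group, with marker shapes for the experiments and bars for the mean ± SD (n = 3). Mt1 lies between 233 and 1046 CPM in the 6 co-culture libraries and between 66.0 and 135 CPM in the 6 libraries alone, while Gstt1 runs the other way.

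Mt1 and Mt2 had the largest fold rises of the 9 genes in both genotypes. Given in the order 17_9, 25_9 and 1_10 here and for the genes below, Mt1 stood at 485, 396 and 233 CPM in p53-/- NPCs in co-culture, against 113, 94.7 and 66.0 CPM alone. In p53+/+ NPCs it stood at 731, 1046 and 370.5 CPM in co-culture, against 135, 128 and 82.3 CPM alone. The lowest co-culture library was above the highest library alone in both genotypes, and experiment 1_10 was lowest in every group. Fitted log2 fold changes were 2.02 ± 0.36 SE (adjusted p = 0.001212) in p53-/- and 2.64 ± 0.37 (adjusted p = 0.0001676) in p53+/+ NPCs, by edgeR's quasi-likelihood test with Benjamini-Hochberg adjustment, which also gives the adjusted p-values below. Within experiments, the ratio of co-culture to alone was 4.27, 4.18 and 3.54 in p53-/- NPCs and 5.42, 8.17 and 4.50 in p53+/+ NPCs. Both calls held without any single library or experiment.

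Mt2 followed Mt1 closely. Its levels were 416, 323 and 156 CPM in p53-/- NPCs in co-culture, against 83.8, 50.5 and 28.1 CPM alone. In p53+/+ NPCs they were 583, 796 and 289 CPM in co-culture, against 129, 97.2 and 46.7 CPM alone. The groups did not overlap in either genotype, and the lowest value of every group again came from experiment 1_10. The log2 fold change was 2.46 ± 0.50 (adjusted p = 0.00257) in p53-/- and 2.61 ± 0.50 (adjusted p = 0.001435) in p53+/+ NPCs. Without experiment 25_9 the p53+/+ value was 2.31, with an adjusted p of 0.05213. The annotation places a gene, Gm45774, antisense to Mt2, and reads of such a pair cannot be told apart where strand was not used in counting.

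Mt3, the brain-enriched member, rose less. It had 503, 446 and 293 CPM in p53-/- NPCs in co-culture, against 327, 225 and 164 CPM alone. In p53+/+ NPCs it had 683, 870.1 and 439 CPM in co-culture, against 309.9, 312 and 243 CPM alone. The groups overlapped in p53-/- NPCs, where experiment 17_9 alone was above experiment 1_10 in co-culture, and did not overlap in p53+/+ NPCs. The log2 fold change was 0.79 ± 0.28 (adjusted p = 0.04202) in p53-/- and 1.20 ± 0.28 (adjusted p = 0.004978) in p53+/+ NPCs. The p53-/- call was lost in 7 of 15 fits that left out a library or an experiment (lowest value 0.57, largest adjusted p 0.2203). These left out the p53-/- co-culture library of 17_9 or of 25_9, the p53-/- alone library of 25_9 or of 1_10, the p53+/+ alone library of 25_9, or experiment 17_9 or 25_9. The p53+/+ call was lost without experiment 25_9 (1.02, adjusted p = 0.09814).

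Gstm1, a mu-class enzyme, was the most abundant transferase per length in every group. Its values were 574, 463 and 375 CPM in p53-/- NPCs in co-culture, against 251, 204 and 152 CPM alone. In p53+/+ NPCs they were 862, 819 and 639 CPM in co-culture, against 347, 336 and 272 CPM alone. No co-culture library overlapped a library alone of its genotype. The log2 fold changes of 1.22 ± 0.20 (adjusted p = 0.0007327) in p53-/- and 1.28 ± 0.20 (adjusted p = 0.0003723) in p53+/+ NPCs were within their errors of each other. The ratio of co-culture to alone lay between 2.27 and 2.49 in all 6 pairs of libraries from the same experiment and genotype.

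Gstm5, the other mu-class member, had 135, 111 and 115 CPM in p53-/- NPCs in co-culture, against 75.8, 78.2 and 92.3 CPM alone. The p53+/+ NPCs had 134, 129 and 109.8 CPM in co-culture, against 62.6, 63.6 and 62.3 CPM alone. The co-culture levels of the genotypes overlapped, whereas alone the p53-/- libraries were all above the p53+/+ libraries. Its log2 fold change in co-culture was 0.55 ± 0.12 (adjusted p = 0.004147) in p53-/- and 0.99 ± 0.12 (adjusted p = 7.319e-05) in p53+/+ NPCs. The p53-/- call was lost without experiment 17_9 (0.42, adjusted p = 0.06106) or 25_9 (0.57, adjusted p = 0.06606). An antisense gene, 4933431E20Rik, overlaps Gstm5, was counted at a similar level (112 ± 13.1 CPM in p53-/- and 106 ± 9.62 CPM in p53+/+ NPCs in co-culture, 63.9 ± 13.3 and 55.7 ± 4.68 CPM alone, SD, n = 3 each) and rose with it, so the values of Gstm5 are uncertain.

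Gstp1, the pi-class enzyme, changed least. In p53-/- NPCs it had 77.2, 74.5 and 66.4 CPM in co-culture, against 80.0, 70.0 and 68.7 CPM alone. In p53+/+ NPCs it had 96.98, 103 and 76.7 CPM in co-culture, against 59.7, 67.3 and 66.2 CPM alone. The p53-/- groups overlapped and the p53+/+ groups did not. The log2 fold change in p53-/- NPCs was -0.005 ± 0.13 (adjusted p = 0.9806), with a 95% interval from -0.28 to 0.27, and its sign turned with the scaling used. In p53+/+ NPCs it was 0.52 ± 0.13 (adjusted p = 0.006653), and this call was lost without experiment 17_9 (0.45, adjusted p = 0.06181) or 25_9 (0.46, adjusted p = 0.1207). Gstp2, a near copy of Gstp1, was counted separately at 1.04 to 1.81 CPM on average. How reads that fit both genes were treated is not given in the sources used here, so the level of Gstp1 is uncertain.

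Gsta4, the alpha-class enzyme that acts on lipid peroxidation products such as 4-hydroxynonenal, had 66.3, 56.2 and 42.9 CPM in p53-/- NPCs in co-culture, against 38.7, 28.9 and 32.3 CPM alone. In p53+/+ NPCs the levels were 118, 104 and 70.1 CPM in co-culture, against 53.8, 42.5 and 35.0 CPM alone. The groups did not overlap in either genotype. Fitted log2 fold changes of Gsta4 were 0.73 ± 0.22 (adjusted p = 0.02106) in p53-/- and 1.16 ± 0.22 (adjusted p = 0.001394) in p53+/+ NPCs. Of 15 fits with a library or experiment left out, 5 lost the p53-/- call: those without the p53-/- co-culture library of 17_9 (0.57, adjusted p = 0.09661) or of 25_9, the p53-/- alone library of 25_9 or of 1_10, or experiment 25_9 (0.62, adjusted p = 0.2006). The p53+/+ value was 1.09 without experiment 25_9, with an adjusted p of 0.051.

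Gstt1, the theta-class enzyme, was the gene that fell. It had 17.6, 15.2 and 14.4 CPM in p53-/- NPCs in co-culture, against 23.3, 30.2 and 30.85 CPM alone. The p53+/+ NPCs had 9.43, 11.4 and 13.5 CPM in co-culture, against 17.6, 24.7 and 32.9 CPM alone. Every co-culture library was below every library alone of its genotype. Its fitted change was a log2 value of -0.84 ± 0.22 (adjusted p = 0.009681) in p53-/- and -1.13 ± 0.22 (adjusted p = 0.001524) in p53+/+ NPCs. The p53-/- call was lost without experiment 25_9 (-0.76, adjusted p = 0.1376) or 1_10 (-0.69, adjusted p = 0.05316).

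Mgst1, a membrane-bound transferase, also has peroxidase activity. It had 87.8, 69.6 and 60.8 CPM in p53-/- NPCs in co-culture, against 52.1, 37.8 and 38.7 CPM alone. The p53+/+ NPCs had 100.1, 86.3 and 71.8 CPM in co-culture, against 30.5, 35.2 and 27.4 CPM alone. The groups did not overlap in either genotype. Mgst1 rose by a log2 fold change of 0.76 ± 0.18 (adjusted p = 0.005742) in p53-/- and 1.47 ± 0.18 (adjusted p = 6.95e-05) in p53+/+ NPCs, and the p53-/- call was lost without experiment 25_9 (0.71, adjusted p = 0.08192).

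**Figure D2:**
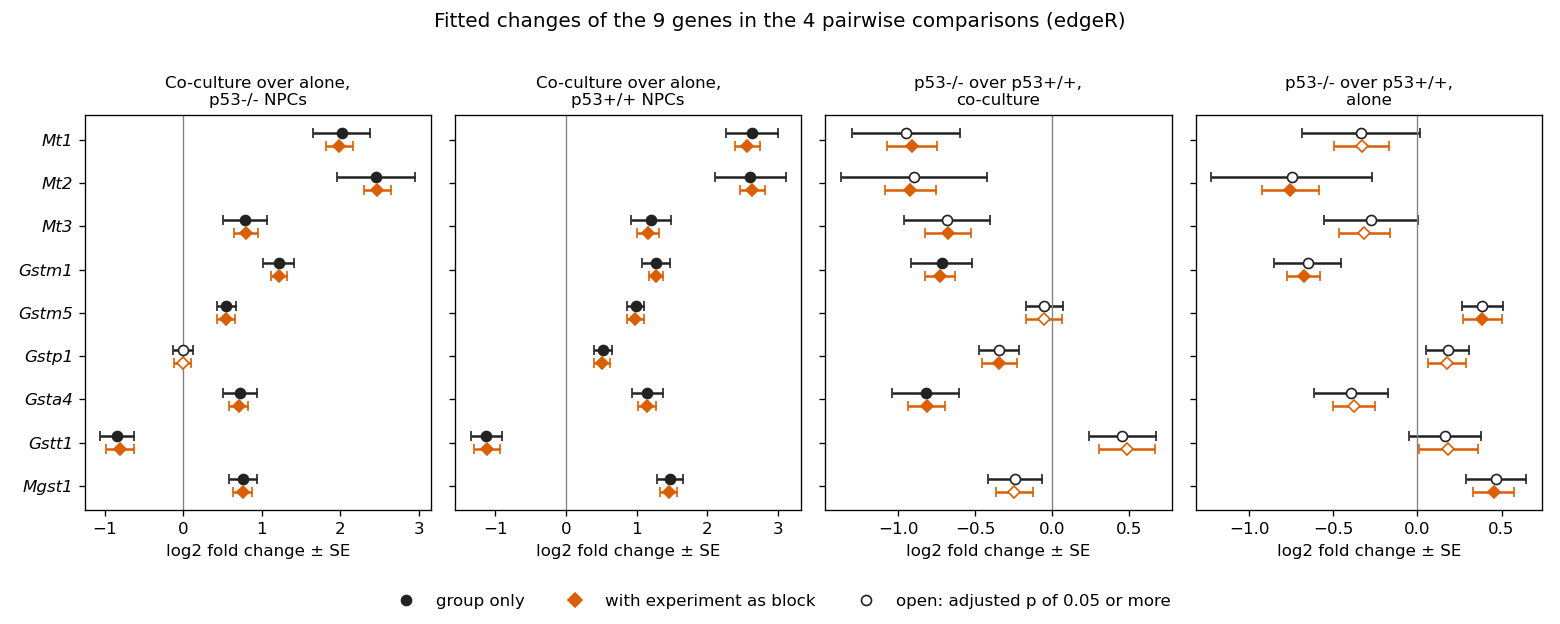
Fitted log2 fold changes ± SE of the 9 genes in 4 pairwise comparisons, by edgeR with group only (circles) and with the experiment as a block (diamonds), filled where the adjusted p is under 0.05. For p53-/- over p53+/+ NPCs in co-culture, 2 circles and 6 diamonds are filled, all left of 0.

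Between genotypes in co-culture, 2 of the 9 genes fell in p53-/- NPCs, Gstm1 and Gsta4, and none rose, while 4.93% of all tested genes were called lower and 3.24% higher. The median log2 fold change of the 9 genes was -0.68, beside 0.02 over all tested genes. With the experiment as a block, 6 fell, adding Mt1, Mt2, Mt3 and Gstp1, and none rose, against 10.9% and 9.99% of all tested genes. The p53-/- libraries of Gstm1 (375 to 574 CPM) lay wholly below those of p53+/+ NPCs (639 to 862 CPM), and likewise for Gsta4 (42.9 to 66.3 CPM against 70.1 to 118 CPM). Gstt1 was the gene whose p53-/- libraries lay wholly above (14.4 to 17.6 CPM against 9.43 to 13.5 CPM), without a call (0.46 ± 0.22, adjusted p = 0.2124). Of all tested genes, 16.9% lay wholly below and 14.4% wholly above. The summed level of the astroglial markers was lower in these p53-/- libraries without overlap, as given above. By gene, 1 of the 10 was called lower and none higher (with the block, 6 and none). Gjb6 was not lower on average (2.27 CPM in p53-/- against 2.17 CPM in p53+/+ NPCs). The part of these markers in the differences was not tested.

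The log2 fold change of Gstm1 in co-culture was -0.72 ± 0.20 (adjusted p = 0.04303), and -0.73 with the block (adjusted p = 0.0004702). That of Gsta4 was -0.82 ± 0.22 (adjusted p = 0.03609), and -0.82 with the block (adjusted p = 0.0009121). Without the block, both adjusted p-values lay close to the threshold of 0.05. Within experiments 17_9, 25_9 and 1_10, the ratio of p53-/- to p53+/+ was 0.666, 0.565 and 0.587 for Gstm1. For Gsta4 it was 0.560, 0.541 and 0.612. The fits with a library or experiment left out had group only, so they did not use this pairing, and none was run with the block. In them, Gstm1 stayed between -0.88 and -0.57 and Gsta4 between -1.01 and -0.67. Gstm1 lost its call in 8 of 15 fits with a library or experiment left out and Gsta4 in 6. For both, these included the p53+/+ co-culture libraries of 17_9 (-0.65, adjusted p = 0.1747 for Gstm1, and -0.67, adjusted p = 0.1695 for Gsta4) and 25_9, the p53-/- co-culture libraries of 25_9 and 1_10, and experiments 17_9 and 25_9. Gstm1 also lost it without the 25_9 library of p53-/- or p53+/+ NPCs alone (adjusted p = 0.05389 and 0.05757), with upper-quartile scaling (adjusted p = 0.0513) and with library size alone (adjusted p = 0.05887).

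The metallothioneins were lower in p53-/- NPCs in each of the 3 co-culture experiments. For Mt1 the ratio of p53-/- to p53+/+ was 0.663, 0.378 and 0.630 in 17_9, 25_9 and 1_10, and for Mt2 it was 0.714, 0.406 and 0.539. For Mt3 it was 0.736, 0.513 and 0.666, so that 25_9 gave the lowest ratio for each. The groups overlapped for all 3 genes, since the p53+/+ library of 1_10 was below the highest p53-/- libraries (370.5 against 485 CPM for Mt1). With group only, the log2 fold changes were -0.95 ± 0.35 for Mt1 (adjusted p = 0.1148), -0.90 ± 0.47 for Mt2 (adjusted p = 0.2619) and -0.68 ± 0.28 for Mt3 (adjusted p = 0.1491). With the block they were -0.91 (adjusted p = 0.002721), -0.92 (adjusted p = 0.002637) and -0.68 (adjusted p = 0.008353). Mt1 also passed with group only when the p53+/+ co-culture library of 1_10 (-1.26, adjusted p = 0.02566) or experiment 1_10 (-1.01, adjusted p = 0.02538) was left out. Over all 15 fits with a library or experiment left out, Mt1 lay between -1.26 and -0.57, Mt2 between -1.21 and -0.55 and Mt3 between -0.91 and -0.44, with adjusted p up to 0.6508, 0.7777 and 0.6681, and neither Mt2 nor Mt3 was called. The smallest difference of each came without the p53+/+ co-culture library of 25_9. DESeq2 with group only called Mt1 as well (adjusted p = 0.0392). Gstp1 was at -0.35 ± 0.13 (adjusted p = 0.1157), at -0.34 with the block (adjusted p = 0.04737), and at -0.46 without the p53+/+ co-culture library of 1_10 (adjusted p = 0.03683).

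**Figure D3:**
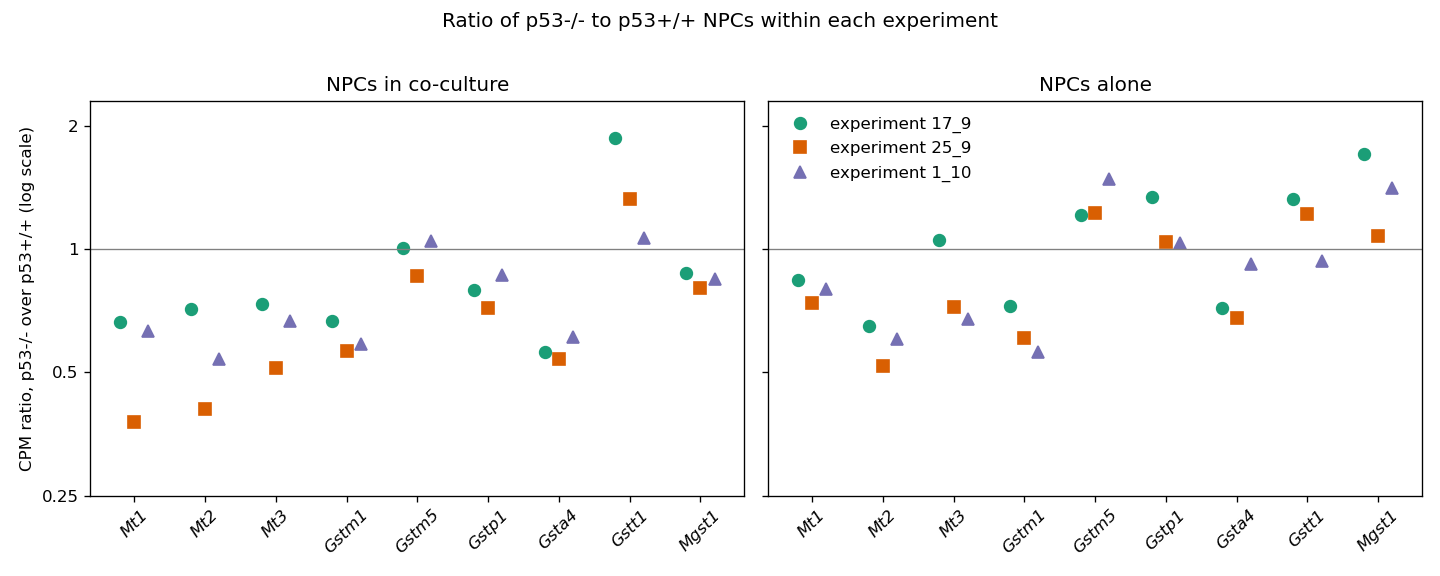
Ratio of CPM in p53-/- to p53+/+ NPCs within each experiment, on a log axis, in co-culture and alone. Gstp1 and Mgst1 are below 1 in all 3 experiments in co-culture and above 1 in all 3 alone, while Mt1, Mt2, Gstm1 and Gsta4 are below 1 in all 6.

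Alone, none of the 9 genes was called between genotypes by edgeR with group only, against 2.02% of all tested genes higher and 4.27% lower in p53-/- NPCs. At an unadjusted p under 0.05 there were 3 (Gstm1, Gstm5 and Mgst1). DESeq2 with group only called 1 higher, Gstm5 (0.37, adjusted p = 0.04993), and 1 lower, Gstm1 (-0.67, adjusted p = 0.01952). The shares of all tested genes under these rules were not computed, so the counts have no background to be read against. With the block, edgeR called 2 higher, Gstm5 and Mgst1, and 2 lower, Mt2 and Gstm1, against 7.25% and 9.33% of all tested genes. The median log2 fold change of the 9 genes was -0.27, beside 0.05 over all tested genes. Gstm1 had 152 to 251 CPM in p53-/- against 272 to 347 CPM in p53+/+ NPCs, with a log2 fold change of -0.65 ± 0.20 (adjusted p = 0.07047) and -0.67 with the block (adjusted p = 0.0008443). For Mt2 the values were -0.75 ± 0.48 (adjusted p = 0.366) and -0.75 with the block (adjusted p = 0.01102). With a library or experiment left out and group only, Mt2 lay between -1.20, without the p53-/- alone library of 17_9, and -0.41, without the p53+/+ alone library of 17_9, and was called in none of the 15 fits (adjusted p up to 0.7027). Gstm5 was at 0.39 ± 0.12 (adjusted p = 0.08151) and 0.39 with the block (adjusted p = 0.04285), and Mgst1 at 0.47 ± 0.18 (adjusted p = 0.1367) and 0.45 with the block (adjusted p = 0.02614). In the same left-out fits Gstm5 lay between 0.25 (without experiment 1_10) and 0.44, and Mgst1 between 0.28 (without experiment 17_9) and 0.65, neither with a call. The p53-/- libraries lay wholly above for Gstm5, Gstp1 and Mgst1 and wholly below for Gstm1, as did 15% and 12.4% of all tested genes. Gstm1 passed with group only in 3 of 15 fits with a library left out, those without the p53-/- alone library of 17_9 (-0.84, adjusted p = 0.03655) or the p53-/- co-culture library of 17_9 or 1_10. The summed level of the astroglial markers was lower in p53-/- NPCs alone too. By gene, 1 of the 10 was called lower and none higher (with the block, 5 and none). Aldoc ran the other way, with 373 to 396 CPM in p53-/- against 285 to 308 CPM in p53+/+ NPCs. The part of these markers was not tested.

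Whether the co-culture effect differed between genotypes was tested as an interaction, the log2 effect in p53-/- NPCs minus that in p53+/+ NPCs. None of the 9 genes was called, against 0.0364% of all tested genes, and with the block likewise none (0.08% of all tested genes). An unadjusted p under 0.05 was found for 3 of the 9, and the share of all tested genes at that cutoff was not computed. The 3 were Gstp1 at -0.53 ± 0.18 (adjusted p = 0.6745), Mgst1 at -0.71 ± 0.25 (adjusted p = 0.6843) and Gstm5 at -0.43 ± 0.17 (adjusted p = 0.6843). DESeq2 with group only called none, and with the block it called Mgst1 (-0.69, adjusted p = 0.02104). For Gstm1 the difference was -0.06 with a 95% interval from -0.67 to 0.54, and for Mt2 it was -0.15 with an interval from -1.60 to 1.29. The median over the 9 genes was -0.43, beside -0.02 over all tested genes. The comparisons within a genotype and those between genotypes share libraries, so that their values are not independent of each other.

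Genes that handle zinc or glutathione, or that NRF2 is known to regulate, were read beside the 9. Of 21 tested genes of metallothionein regulation and zinc transport, 7 rose and 1 fell in co-culture of each genotype (with the block, 9 and 3 in p53-/- and 9 and 2 in p53+/+ NPCs), with a median log2 fold change of 0.14 in p53-/- and 0.22 in p53+/+ NPCs. Of all tested genes, 18.8% rose and 17% fell in p53-/- NPCs (with the block, 24.3% and 23.2%). In p53+/+ NPCs these shares were 21.2% and 18.3% (with the block, 26.2% and 24.1%). The zinc importers Slc39a12 (1.47 ± 0.23 in p53-/-, 1.26 ± 0.22 in p53+/+), Slc39a8 (0.98 ± 0.27 and 1.62 ± 0.29), Slc39a14 (0.79 ± 0.13 and 0.65 ± 0.13) and Slc39a1 (0.40 ± 0.10 and 0.61 ± 0.10) rose, and Slc39a6 fell (-0.53 ± 0.10 and -0.33 ± 0.10). Mtf1 itself was at 0.14 ± 0.10 and 0.03 ± 0.10, and the zinc exporter Slc30a1, a known MTF1 target, at 0.11 ± 0.15 and 0.07 ± 0.15, both without a call and named after their values were seen. Between genotypes, Slc39a12 was lower in p53-/- NPCs in co-culture (34.1 ± 5.0 CPM against 86.5 ± 22.0 CPM, log2 fold change -1.34 ± 0.22, adjusted p = 0.004141) and alone (12.3 ± 3.3 CPM against 36.2 ± 6.6 CPM, -1.56 ± 0.23, adjusted p = 0.001535). Slc39a1 was the other gene of the list called lower in p53-/- NPCs in co-culture (-0.42 ± 0.10, adjusted p = 0.01782). With the block, Slc39a13 was lower as well, in co-culture (-0.47, adjusted p = 0.00968) and alone (-0.44, adjusted p = 0.01695), and Slc39a8 was higher alone (0.94, adjusted p = 0.04326), both named after their values were seen.

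Among 17 other tested glutathione S-transferases and related genes, 4 rose and 2 fell in co-culture of p53-/- NPCs, and 6 rose and 2 fell in that of p53+/+ NPCs. Of all tested genes, 18.8% rose and 17% fell in p53-/- NPCs, and 21.2% and 18.3% in p53+/+ NPCs, so the p53-/- counts lie near these shares. The block gave 5 and 2 in p53-/- and 8 and 3 in p53+/+ NPCs, against 24.3% and 23.2%, and 26.2% and 24.1%, of all tested genes. Ptges, which makes prostaglandin E2, rose in both (2.41 ± 0.31 in each), to 5.77 ± 2.07 CPM in p53-/- and 6.16 ± 0.29 CPM in p53+/+ NPCs. Gsto2, an omega-class enzyme, rose in both as well (1.68 ± 0.33 and 1.04 ± 0.32), and Gstcd fell in both (-0.64 ± 0.16 and -0.82 ± 0.16). Gstt3, a theta-class relative of Gstt1, fell in p53+/+ NPCs (-1.15 ± 0.20, adjusted p = 0.0007006) and was at -0.39 ± 0.20 in p53-/- NPCs (adjusted p = 0.1539). It was also lower in p53-/- NPCs alone than in p53+/+ NPCs alone (-1.23 ± 0.20, adjusted p = 0.002978), the single call of the list between genotypes with group only. With the block, Gstcd (0.35, adjusted p = 0.0423) and Clic4 (0.31, adjusted p = 0.04136) were higher and Gstz1 (-0.37, adjusted p = 0.04008) lower in p53-/- NPCs in co-culture, the last pair named after their values were seen. Gsta3, an alpha-class enzyme at a low level, rose in co-culture of p53+/+ NPCs, with 1.19 ± 0.42 CPM against 0.137 ± 0.139 CPM alone (3.00 ± 0.56, adjusted p = 0.001136). In p53-/- NPCs it had 0.599 ± 0.055 CPM in co-culture against 0.211 ± 0.117 CPM alone (1.46 ± 0.55, adjusted p = 0.05222), and was called higher with the block (1.49, adjusted p = 0.02292).

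Of 31 tested genes of glutathione synthesis and recycling, 5 rose and 4 fell in co-culture of p53-/- NPCs, and 16 rose and none fell in that of p53+/+ NPCs. The p53-/- counts do not exceed the shares of all tested genes (18.8% higher and 17% lower, and 21.2% and 18.3% in p53+/+ NPCs). With the block the list's counts were 13 and 7 in p53-/- and 17 and 1 in p53+/+ NPCs, where 24.3% and 23.2% of all tested genes were called in p53-/- and 26.2% and 24.1% in p53+/+ NPCs. Slc7a11, the cystine importer, rose in both (1.43 ± 0.31 and 2.14 ± 0.32), as did Oplah (1.85 ± 0.28 and 1.84 ± 0.28), which turns 5-oxoproline into glutamate, and the exporter Abcc4 (0.78 ± 0.11 and 1.01 ± 0.11). G6pdx, the first enzyme of the pentose phosphate pathway, was at 0.12 ± 0.11 in p53-/- (adjusted p = 0.4163) and rose by 0.87 ± 0.11 in p53+/+ NPCs (adjusted p = 8.709e-05). Abcc1, an exporter of glutathione conjugates, was at 0.31 ± 0.11 in p53-/- (adjusted p = 0.05018, and 0.03495 with the block) and rose by 0.68 ± 0.11 in p53+/+ NPCs. Between genotypes in co-culture, 6 of the 31 were lower in p53-/- NPCs and none higher, G6pdx among them with 162 ± 6.25 CPM against 267 ± 16.3 CPM (-0.73 ± 0.11, adjusted p = 0.002448). With the block, 8 were lower and none higher. None was called in either direction alone, and 5 were higher and 3 lower with the block. Of all tested genes, 4.93% were lower and 3.24% higher in p53-/- NPCs in co-culture (with the block, 10.9% and 9.99%). Alone, 4.27% were lower and 2.02% higher (with the block, 9.33% and 7.25%).

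Among the 30 NRF2 regulators and targets, of which 8 are also in the glutathione list, 5 rose and 2 fell in co-culture of p53-/- NPCs, and 17 rose and 2 fell in that of p53+/+ NPCs. The block gave 12 and 5 in p53-/- and 19 and 2 in p53+/+ NPCs. No gene of either list was called in the interaction, with or without the block, so these counts do not show a difference between genotypes. The shares of all tested genes given with the glutathione list also stand beside the NRF2 counts, here and between genotypes. Between genotypes in co-culture, 11 of the 30 were lower in p53-/- NPCs and none higher (with the block, 15 and none), and the list's summed level was 4849 to 5884 CPM in p53-/- against 6818 to 8600 CPM in p53+/+ NPCs. The sum gives most weight to abundant genes such as Fth1 (on average 1288 CPM in p53-/- against 2239 CPM in p53+/+ NPCs). Not every gene followed it: Sqstm1, named after its values were seen, averaged 282 CPM in p53-/- against 269 CPM in p53+/+ NPCs. Srxn1, which restores oxidized peroxiredoxins, had 49.8 ± 5.2 CPM in p53-/- against 140.4 ± 26.4 CPM in p53+/+ NPCs (-1.50 ± 0.17, adjusted p = 0.0002612). Fth1, the ferritin heavy chain, was at -0.80 ± 0.21 (adjusted p = 0.03414). Ephx1, the microsomal epoxide hydrolase, had 108 ± 0.857 CPM against 504 ± 51.0 CPM (-2.22 ± 0.15, adjusted p = 6.486e-06). Alone, 3 of the 30 were lower in p53-/- NPCs and none higher: Ephx1 (-1.65 ± 0.15), Nfe2l2 (-1.06 ± 0.12, adjusted p = 0.0002565) and Aox1 (-1.22 ± 0.18), of which the last pair were named after their values were seen. With the block, 4 were lower, adding Srxn1 (-0.51, adjusted p = 0.02344), and 2 higher, Slc7a11 (0.91, adjusted p = 0.006441) and Tkt (0.47, adjusted p = 0.03281), a pentose phosphate enzyme named after its values were seen. Nfe2l2 stood at 151 ± 7.81 CPM in p53-/- against 292 ± 19.6 CPM in p53+/+ NPCs in co-culture (-0.95 ± 0.12, adjusted p = 0.0008145), and at 126 ± 10.3 against 264 ± 40.4 CPM alone.

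**Figure D4:**
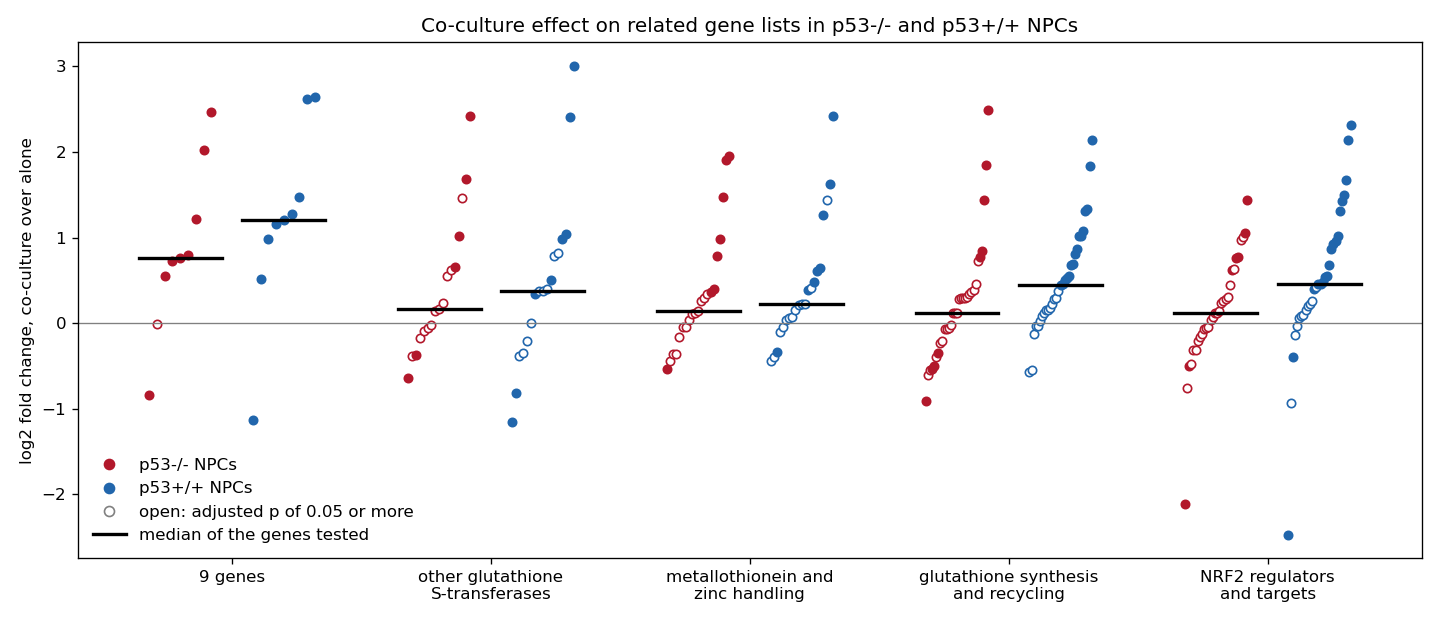
Log2 fold change of co-culture over alone for each tested gene of 5 lists, in p53-/- and p53+/+ NPCs, filled where the adjusted p is under 0.05, with a line at the median of each list. The medians of the 9 genes are 0.76 and 1.20, and those of the NRF2 list are 0.12 and 0.46.

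Across the 12 libraries, the log2 CPM of Mt1, Mt2 and Mt3 correlated with Pearson's r from 0.957 (Mt1 and Mt3) to 0.986 (Mt1 and Mt2). Gstt1 ran opposite to the other 8 genes, with r from -0.920 (Mt2) to -0.633 (Gstp1). Among 11121 genes that averaged a log2 CPM of 2 or more, the genes most like each member over the 12 libraries were Fbxo2, Lrrc75a and Mt2 for Mt1, Vwa1, Mt1 and Dnaic2 for Mt2, and Tex264, Il11ra1 and 1810058I24Rik for Mt3. For the mu-class genes they were Elmo2, Ggact and Parp3 for Gstm1, with r from 0.989 to 0.996, and Psph, Ppp2r5a and Acss1 for Gstm5. Sdhb, Vat1 and Letm1 were most like Gstp1, with r from 0.940 to 0.960, the lowest of the 9. Dbi, Pccb and S100a13 were most like Gsta4, Dennd2a, Mast2 and Ninl most like Gstt1, and Pttg1, Slc25a33 and BC029214 most like Mgst1. The 12 points share 2 genotypes, 2 culture conditions and 3 experiments, so these are descriptions of a common pattern over few conditions.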

How the data were processed

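RNA from 12 NPC cultures was sequenced by the authors with a stranded Truseq mRNA kit. Per the labels, reads were aligned to mm9 with TopHat2 2.0.11, and HTSeq 0.6.1 counted them by gene. Raw counts were deposited by the authors, in columns whose prefixes and numbers were read with the key to the study's count table. Not given in the sources used here: strand setting, annotation version and the formula of the authors' DESeq2 model.

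CPM used TMM-scaled library sizes (factors 0.961 to 1.04). Low counts were removed with filterByExpr, leaving 13745 genes (edgeR 4.0.16, R 4.3.3). A quasi-likelihood model with group only was fitted to all 12 libraries, p-values were adjusted by Benjamini-Hochberg over all tested genes, and 0.05 was the threshold. Intervals are 95%. The fit was tested on simulated data.

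Experiment numbers pair the libraries: the study's key to its counts says so, and deviations from group means correlated in all 18 same-numbered pairs (r from 0.128 to 0.618, against -0.608 to 0.241 in 36 other pairs). The ranges overlap. Deviations within a group cancel out, which pushes the other pairs down when same-numbered pairs correlate, so those pairs are no independent reference. Blocked values are given where they change a call of the 9 genes, and as counts for the lists. Libraries of 1 group differed by 13.2 to 62.5 times counting variance, so none was a copy. Symbols turned into dates (27) were tested as listed and are not named.

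The members and all lists (zinc handling, other transferases, glutathione, NRF2, and endothelial, NPC, astroglial, mural and fibroblast, and microglial markers) were chosen with earlier results of these data known. Named are all members, up to 5 called genes per list by smallest adjusted p, the 3 genes most like each member (Pearson's r of log2 CPM, prior count 2), Trp53, Cdkn1a, Cdh5 and Pecam1, and genes said to be named after their values were seen. Not every gene that meets this rule is described. Alternatives were other scalings and count filters, DESeq2 1.42.0, the block, only the groups compared, a threshold of 0.01 and leaving out libraries or experiments. All fits with libraries or experiments left out had group only. Promoters came from RefSeq (GRCm38.p6), lengths from GENCODE, and figures from matplotlib 3.10.9.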

Additional observations from a re-analysis of the deposited data

Results flagged for a closer look

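Gstp1 and Mgst1 are listed because p53-/- NPCs were above p53+/+ NPCs in every experiment alone and below them in every experiment in co-culture. For Gstp1, the ratio of p53-/- to p53+/+ was 0.796, 0.720 and 0.865 in co-culture (experiments 17_9, 25_9 and 1_10), and 1.34, 1.04 and 1.04 alone. For Mgst1 it was 0.878, 0.806 and 0.848 in co-culture, and 1.71, 1.08 and 1.42 alone. The test of the difference itself, the interaction, gave -0.53 for Gstp1 (adjusted p = 0.6745 by edgeR) and -0.71 for Mgst1 (adjusted p = 0.6843), so neither passed over all genes. With the replicate block the values were -0.52 (adjusted p = 0.2121) and -0.70 (adjusted p = 0.143).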

How the results depend on the processing

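The direction of the 9 genes in co-culture held in both genotypes under every alternative, except for Gstp1 in p53-/- NPCs. It was at 0.00096 with the size factors of DESeq2, 0.066 with upper-quartile scaling, 0.057 with library size alone, 0.034 with at least 10 counts in every library, 0.00094 with DESeq2 and 0.0059 with only the groups compared, and between -0.059 and 0.062 with a library or experiment left out. The interaction of Gstm1 was 0.0012 with library size alone. Leaving out libraries or experiments also turned Gstt1 alone (-0.033 to 0.41), Gstm5 between genotypes in co-culture (-0.14 to 0.035), and the interactions of Mt2 (-0.49 to 0.31) and Gstm1 (-0.20 to 0.12).

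The number of the 9 genes lower in p53-/- NPCs in co-culture was 1 with upper-quartile scaling, 1 with library size alone, 6 with DESeq2 and the block, 6 with the replicate block and 0 at a threshold of 0.01. Alone, DESeq2 gave 1 higher and 1 lower, DESeq2 with the block 2 and 3, and the replicate block 2 and 2. In the interaction, DESeq2 with the block gave 1 lower. For these alternatives other than the replicate block, the shares of all tested genes were not computed. Leaving out libraries or experiments gave 3 to 7 genes higher in co-culture of p53-/- NPCs and 4 to 8 in that of p53+/+ NPCs (3 and 4 without experiment 25_9). Lower genes were 0 to 1 in co-culture of p53-/- NPCs (0 without 25_9 or 1_10), 0 to 1 between genotypes alone and 0 to 4 between genotypes in co-culture (4 without the p53+/+ co-culture library of 1_10). The causes were not tested, except that fits without an experiment hold 8 libraries.

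With 3 libraries a group, differences larger than the SE given also went without a call. An example is Mt1 between genotypes in co-culture (-0.95 ± 0.35, adjusted p = 0.1148 by edgeR with group only). The lack of a call does not show that there was no difference. Over all tested genes the replicate block raised the share called between genotypes, in either direction, to 16.6% against 6.29% alone and to 20.9% against 8.16% in co-culture. It changed no call of the 9 genes in co-culture against alone or in the interaction.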
